A study of Mus musculus with 6 samples.

Results

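The clustered replication-dependent histone genes were examined in messenger RNA profiles of dead osteoblasts from old and young mice. They were taken as the rows whose symbol begins with Hist1h to Hist4h, which are 67 of the 29587 gene rows of the deposited table. By the histone class in the symbol, 6 encode linker histone H1, 19 encode H2A, 17 encode H2B, 12 encode H3 and 13 encode H4. The large Hist1 cluster on chromosome 13 holds 54 of them, Hist2 on chromosome 3 holds 10, Hist3 on chromosome 11 holds 2 and Hist4 on chromosome 6 holds 1.

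There were 3 libraries of apoptotic osteoblasts from old mice and 3 from young mice, compared by the age of the mice. Both groups share every step of the preparation. Adherent cells grown out of bone fragments were passaged, induced in osteogenic medium and killed by ultraviolet light, so no sample is of living or uninduced cells. Total RNA was taken with Trizol and sequenced with a messenger RNA kit, and the labels do not say how the kit enriched messenger RNA. The labels give "none" as the genotype of both groups, give no strain or age beyond old and young, and do not state whether replicates were separate animals or cultures. P-values therefore reflect only how the 6 libraries vary, and that spread may be technical.

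Core histones H2A, H2B, H3 and H4 form the nucleosome spool on which DNA is wound, and linker histone H1 sits where the DNA enters and leaves it. The clustered genes supply these proteins mainly during S phase, when new DNA has to be packed. Their messenger RNAs mostly end in a short hairpin, the stem-loop bound by the protein SLBP, in place of a poly(A) tail. Some of them are also known to be made with a poly(A) tail in differentiated cells, and a library made from polyadenylated RNA counts mainly such transcripts.

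The stem-loop is shown because transcripts of these genes mostly end in it in place of a poly(A) tail. The 3′ ends of the RNA were not measured here. A perfect hairpin with an arm of 6 bases and a loop of 4 bases that starts with TTT was found in the annotated transcripts (GENCODE M21, GRCm38) of 44 members: 4 of 6 for H1, 11 of 19 for H2A, 10 of 17 for H2B, 8 of 12 for H3 and 11 of 13 for H4. There were 6 versions, given here 5′ to 3′ as DNA letters with both arms in capitals. The first was in 26 members, among them Hist1h1c (chr13:23739512-23739527, plus strand), the second in 6, among them Hist1h2bk (chr13:22036300-22036315, plus strand), and the third only in Hist2h2ac (chr3:96220418-96220433, minus strand).
Most frequent version: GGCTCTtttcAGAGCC
Version of Hist1h2bk: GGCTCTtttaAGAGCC
Version of Hist2h2ac: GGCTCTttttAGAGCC
The H4 genes had versions of their own with other arms. The first of these was in 7 H4 members, among them Hist4h4 (chr6:136803998-136804013, minus strand), the second in 2, Hist1h4i (chr13:22040966-22040981, minus strand) and Hist2h4 (chr3:96262939-96262954, minus strand), and the last in 2, among them Hist1h4b (chr13:23757366-23757381, plus strand).
Most frequent H4 version: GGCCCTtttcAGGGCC
Version of Hist1h4i and Hist2h4: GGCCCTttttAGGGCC
Version of Hist1h4b: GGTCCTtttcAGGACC
The arms of all 4 H1 and all 29 H2A, H2B and H3 hairpins were alike, and none of the 11 H4 hairpins had those arms. The deposited exons ended within 100 bases of the hairpin in 29 members and ran on for more than 100 bases in 13. They stopped before it in 2, and 23 members had no such hairpin in their annotated transcript.

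H2A and H2B genes often stand head to head with a shared stretch between their starts. The table held 12 such pairs with 235 to 301 bases between the deposited starts. The windows of 2 pairs are shown because they lie before genes described in detail below: that of Hist1h2bg, which faces Hist1h2ae, and that of Hist1h2ac, which faces Hist1h2bc. Each runs from 250 bases before to 50 bases after the RefSeq start (GRCm38.p6), read along the gene's own strand, with 3 motifs in capitals on either strand: the octamer ATTTGCAT (or ATGCAAAT), the CCAAT box (or ATTGG) and the TATA box TATAAA (or TTTATA).
Hist1h2bg, chr13:23571150-23571449, plus strand: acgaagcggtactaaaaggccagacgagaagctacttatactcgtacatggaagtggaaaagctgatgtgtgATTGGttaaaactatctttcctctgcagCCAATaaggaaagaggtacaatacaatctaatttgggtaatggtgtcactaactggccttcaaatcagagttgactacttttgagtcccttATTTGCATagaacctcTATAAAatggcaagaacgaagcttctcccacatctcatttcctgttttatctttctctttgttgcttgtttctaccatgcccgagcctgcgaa
Hist1h2ac, chr13:23683910-23684209, minus strand: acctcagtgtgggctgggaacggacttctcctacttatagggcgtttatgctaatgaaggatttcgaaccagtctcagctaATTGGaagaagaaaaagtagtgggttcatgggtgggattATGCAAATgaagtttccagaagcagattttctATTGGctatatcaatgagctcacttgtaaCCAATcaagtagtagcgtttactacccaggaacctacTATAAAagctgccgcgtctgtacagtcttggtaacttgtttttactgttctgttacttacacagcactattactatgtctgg
Windows of 60 promoters were matched to 59 members, and Hist1h2bc was not among them. The octamer was in 12 of the 60, which were 6 of 16 H2A and 6 of 16 H2B promoters, against 1.735% of all 32851 promoters in the RefSeq table. None of the 6 H1, 10 H3 or 12 H4 promoters held it. The CCAAT box was in 51 of the 60 (85%), against 37.41% of all promoters, and the 9 without it were H4 promoters. TATAAA was in 33 (55%), against 13.62% of all. No motif searched contains another, and a match describes the letters only.

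The libraries held 75456146 to 84535939 recovered reads in old and 64881180 to 82917726 in young. RPKM is the number of reads per kilobase of gene, scaled to the reads of the library. The osteoblast genes Col1a1 and Sparc were abundant, at a mean of 1528 and 1037 RPKM in old and 1550 and 1094 RPKM in young, while Alpl and Bglap stayed under 1 RPKM on average in both groups. The summed RPKM of 11 osteoblast markers was 4029 to 4108 in old and 3107 to 4255 in young. Within that list limma called Spp1, the osteopontin gene, higher (732 ± 68.6 RPKM in old and 290.4 ± 75.9 RPKM in young) and Sp7, an osteoblast transcription factor, lower (4.90 ± 0.0281 RPKM in old and 8.44 ± 0.567 RPKM in young; SD, n = 3 each). Of the macrophage list Lyz2 alone averaged above 1 RPKM, with Cd68 at a mean of 0.859 RPKM in old and 0.761 RPKM in young, the sum of its 8 measured genes was 9.23 to 10.6 in old and 8.28 to 9.59 in young, and Ptprc and Adgre1 were at or near 0. The sums over the lymphocyte, erythroid, endothelial and adipocyte lists were under 0.2 RPKM in every library. The chondrocyte genes Col2a1 and Sox9 and the smooth muscle gene Acta2 were expressed, whereas Col10a1, Myh11 and Cnn1 were under 0.1 RPKM on average. Young replicate 1 stood apart: the chi-square per degree of freedom of its reads against the other young libraries was 381.2 and 482.6, against 21.6 between those other young libraries and 9.51 to 23.6 among the old ones. It lay above both other young libraries in 31 of the 67 members and below both in 17, so results are also given without it.

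Most of the 67 members were barely present. Together they took 4906 to 5284 reads per library in old and 3967 to 4855 in young. On average over the 6 libraries, 23 members were under 0.1 RPKM, 37 lay between 0.1 and 1 RPKM and 7 reached 1 RPKM. At least 1 read was found in every library for 42 members, 25 had none in at least 1 library, and none of the 67 was at 0 in all 6. For a row of 1000 bases, 3 reads equal 0.0355 to 0.0398 RPKM in old and 0.0362 to 0.0462 RPKM in young, which is the limit that a count of 0 allows for counting error only.

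A few genes carried most of the signal. Hist2h2aa2, an H2A gene of Hist2 (chr3:96239749-96240276, mm10, 1 exon), averaged 37.4 RPKM, and the 66 others together made up 52.3% of the members' summed RPKM. The linker histone gene Hist1h1c (chr13:23738808-23740367, 1 exon) followed at 14.8 RPKM and the H2B gene Hist1h2bc (chr13:23684199-23692488, 2 exons) at 5.92 RPKM. The 64 members below these made up 25.9% of the sum. By class, H2A held 61.2% of the summed RPKM, H1 21.1%, H2B 12.2%, H4 3.74% and H3 1.70%. No H3 gene exceeded 0.339 RPKM on average.

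**Figure D1:**
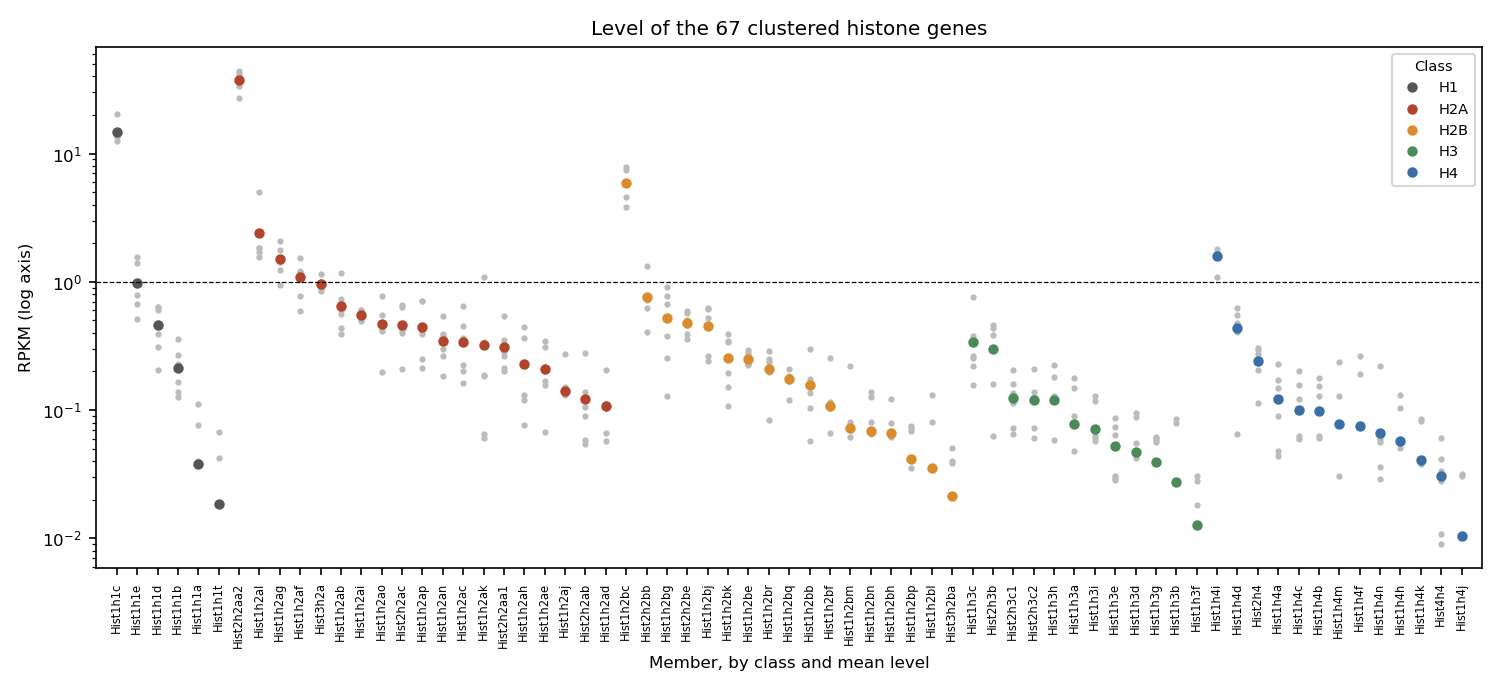
RPKM (log axis) of the 67 members, grouped by class and ordered by mean; coloured points are means over all 6 libraries and grey points single libraries, with libraries at 0 not drawn. The dashed line marks 1 RPKM, above which 7 members lie, and Hist2h2aa2 (37.4 RPKM) and Hist1h1c (14.8 RPKM) stand far above the rest of their classes.

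Where the deposited exons ended relative to an annotated hairpin did not sort the members by level. Only annotated transcripts were searched, so a hairpin past an annotated end was not seen. The split therefore does not give the 3′ end of the RNA itself. Members whose exons ended near the hairpin ranged from 0.0184 to 37.4 RPKM with a median of 0.255 RPKM. Those whose exons ran on past it ranged from 0.0104 to 14.8 RPKM with a median of 0.121 RPKM. Members with no such hairpin in their annotated transcript ranged from 0.0352 to 5.92 RPKM with a median of 0.210 RPKM. The exons of Hist1h1c ran 840 bases past its hairpin and those of Hist1h4i 330 bases, while those of Hist2h2aa2 ended 35 bases after it. The annotated spliced transcript of Hist1h2bc had no such hairpin.

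The levels rest on how reads of near-identical genes were assigned, which is not given in the sources used here. A median of 78.9% of the 50-base stretches of an H2A transcript also occurred in a transcript of another locus, against 57.2% for H3, 44.1% for H2B, 39.5% for H4 and 1.13% for H1. All of those of Hist2h2aa2 occurred elsewhere, its closest partner being Hist2h2aa1, yet the pair differed widely in the table: Hist2h2aa2 had 1112 to 1792 reads per library and Hist2h2aa1 10 to 24. Rows on opposite strands appeared to share reads as well. All 18 rows that lay inside a member, and all 5 members that lay inside another row, held no more reads than the row around them in each of the 6 libraries. These include Gm11398 inside Hist1h2be and Hist2h3c1 inside Gm20634, which are on the same strand and so say nothing on strand. Hist2h2aa2 lies inside the opposite-strand row Gm20632, which held 9691 reads over all libraries against 9150 for Hist2h2aa2. All 406 reads of Hist1h2al were also those of Gm44341, an opposite-strand row of 138 bases inside it, so its level cannot be told apart from that row's.

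The old and young libraries did not differ clearly in the amount of histone transcripts as a whole. The RPKM summed over all members was 79.8, 88.8 and 78.2 in old (82.3 ± 5.67, SD, n = 3) and 92.9, 60.3 and 70.2 in young (74.5 ± 16.7, SD, n = 3). The groups overlapped, with young replicate 1 the highest library of all and the other young libraries the lowest. The ratio of old to young was 1.10, and 1.26 without young replicate 1. In bulk RNA, fewer cells with a transcript and less transcript per cell cannot be told apart.

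The classes did not all lie alike. The H2B sums did not overlap between the groups, at 9.75, 12.4 and 11.6 RPKM in old and 8.99, 6.76 and 8.01 RPKM in young, a ratio of 1.42 (1.52 without young replicate 1). H4 summed to 3.26, 3.02 and 3.41 RPKM in old and 3.00, 2.14 and 2.77 RPKM in young, also without overlap but by a narrow margin, with a ratio of 1.23 (1.32 without young replicate 1). H3 summed to 1.19, 2.19 and 1.48 RPKM in old and 1.01, 0.914 and 1.21 RPKM in young, where old replicate 1 fell just below young replicate 3, and the ratio was 1.55 (1.53 without young replicate 1). H2A, at 45.8 to 56.5 RPKM in old and 35.8 to 58.3 RPKM in young, and H1, at 14.6 to 16.2 RPKM in old and 14.7 to 21.6 RPKM in young, overlapped widely. Their ratios were 1.11 for H2A and 0.892 for H1, and 1.30 and 1.01 without young replicate 1. These sums are a description of the chosen genes, with no test.

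**Figure D2:**
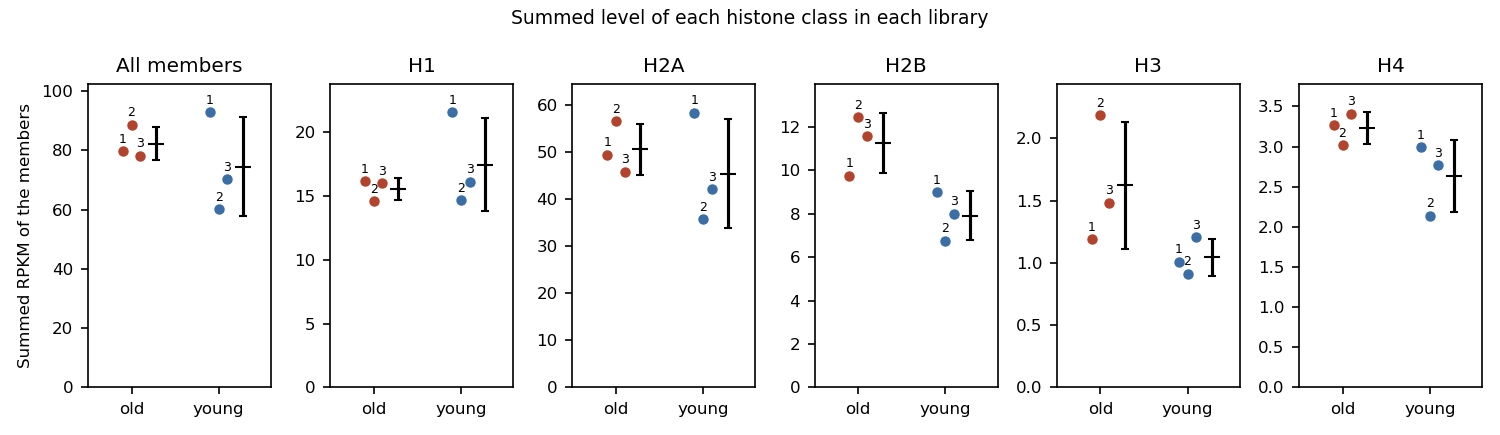
Summed RPKM of all members and of each class in each library, old left and young right, with the replicate number above each point and the mean ± SD (n = 3) as a black bar beside it. The H2B sums of old (9.75 to 12.4 RPKM) all lie above those of young (6.76 to 8.99 RPKM), and young replicate 1 is the highest young library for all members, H1, H2A, H2B and H4.

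Of the 67 members, 7 had at least 1 RPKM in at least 3 libraries and entered the test across 12015 genes (limma on log2(RPKM + 1), Benjamini-Hochberg adjustment, called at an adjusted p under 0.05). Each of them reached 1 RPKM in libraries of both groups. Limma called none of the 7 higher and none lower, against 1.47% of all tested genes called higher and 0.0999% called lower. Limma's voom on the recovered reads also called 0 of them. At an unadjusted p under 0.05, 1 of the 7 was higher and none lower, against 718 of the 12015 genes higher and 631 lower.

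That gene was Hist1h2bc. It had 5.95, 7.80 and 7.40 RPKM in old and 5.93, 3.80 and 4.62 RPKM in young, so the lowest old library was level with young replicate 1 and the groups met without overlapping. Its log2 fold change was 0.49 ± 0.17 (SE) with an adjusted p of 0.339 in limma's test. Without young replicate 1 it was 0.62 ± 0.12 (SE) with an adjusted p of 0.0120 (limma, Benjamini-Hochberg). Its neighbour across the shared promoter, the H2A gene Hist1h2ac, was at 0.646, 0.223 and 0.364 RPKM in old and 0.453, 0.162 and 0.203 RPKM in young, far below it and with overlapping groups.

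Hist2h2aa2 had 40.1, 44.3 and 36.1 RPKM in old and 42.6, 27.1 and 33.8 RPKM in young. Only young replicate 1 lay within the range of the old libraries. The log2 fold change was 0.23 ± 0.18 (SE) with an adjusted p of 0.809, and 0.39 ± 0.11 (SE) with an adjusted p of 0.0398 without that library (limma, Benjamini-Hochberg). Without it, 2 of the 7 members were thus called higher and none lower, while among all tested genes 13.2% were called higher and 19.4% lower.

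Hist1h1c, the main linker histone transcript here, had 13.9, 12.6 and 13.4 RPKM in old and 20.4, 13.7 and 14.8 RPKM in young. Young replicate 1 lay far above the other 5 libraries, which differed little. The log2 fold change was -0.25 ± 0.16 (SE) with an adjusted p of 0.699, and -0.09 ± 0.06 (SE) without that library (adjusted p = 0.292, limma). Hist1h4i, the highest H4 gene (chr13:22040636-22041362, 1 exon), had 1.66, 1.80 and 1.64 RPKM in old and 1.67, 1.10 and 1.59 RPKM in young, a log2 fold change of 0.14 ± 0.11 (SE; adjusted p = 0.816, limma). Only young replicate 2 was clearly below the others.

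The other 3 tested members were H2A genes near 1 or 2 RPKM. Hist1h2ag had 1.51, 2.08 and 1.23 RPKM in old and 1.78, 1.43 and 0.945 RPKM in young, and Hist1h2af 0.593, 1.20 and 1.18 RPKM in old and 1.55, 0.775 and 1.21 RPKM in young. Both groups covered much the same range in each gene. Hist1h2al had 1.56, 2.38 and 1.83 RPKM in old and 5.06, 1.84 and 1.72 RPKM in young, so that young replicate 1 was far above the other 5 libraries. Its log2 fold change was -0.31 with all libraries and 0.06 without that one.

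**Figure D3:**
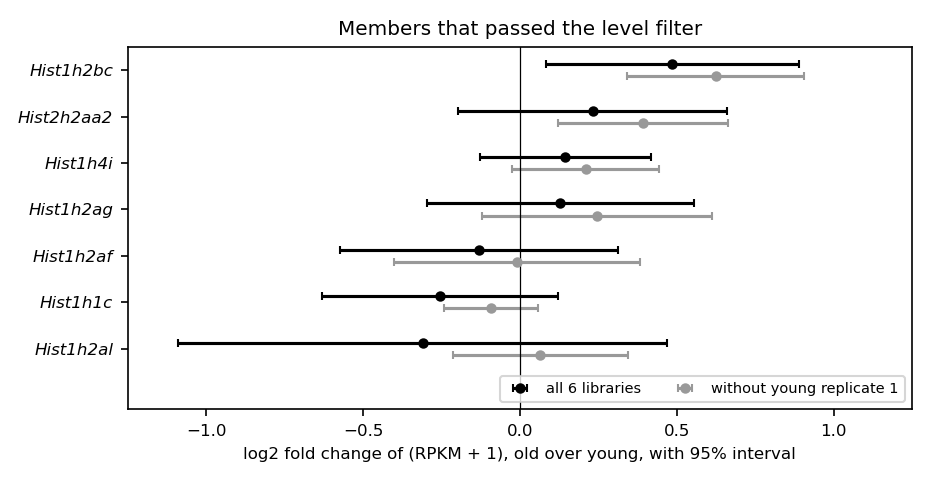
Log2 fold change of (RPKM + 1), old over young, of the 7 tested members with 95% intervals from limma, with all 6 libraries (black) and without young replicate 1 (grey). The intervals of Hist1h2bc lie above 0 in both fits, that of Hist2h2aa2 only without young replicate 1, and that of Hist1h2al narrows most.

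With a lower filter, members with higher values in old were common. A wider fit took all genes with a mean of at least 0.1 RPKM on log2(RPKM + 0.1). It held 44 members among 17181 genes, and these include the 7 tested above. Limma again called 0 of the 44 in either direction, against 1.11% of all genes called higher and 0.0407% lower. At an unadjusted p under 0.05, 7 members were higher and none lower, against 1011 of the 17181 genes higher (5.88%) and 797 lower. The fold change was above 0 for 31 of the 44 (70.5%), against 51.7% of all genes in that fit. In the same fit without young replicate 1, a setting chosen after the data were seen, 5 members were called higher and none lower (Hist1h1d, Hist1h1e, Hist1h2bc, Hist1h2bg and Hist1h2bk), with adjusted p-values of 0.0186 to 0.0270 in limma. Over all genes of that fit 8.84% were called higher and 11.1% lower, so 5 of 44 (11.4%) is near the share of all genes called higher.

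Of these 44 members, 10 had every old library above every young one and 1 had every old library below. Among all 17181 genes at a mean of at least 0.1 RPKM the shares were 10.1% higher and 9.34% lower. The members' share of higher ones was thus 22.7% and that of lower ones 2.27%. Histone genes are short, so the same count was made for rows of at most 1000 bases: 9 of 35 members were higher without overlap and none lower, against 7.98% higher and 4.99% lower of 3810 such rows. Without young replicate 1, 18 of the 44 were higher without overlap and 1 lower, against 20.9% and 34.5% of all genes. These counts rest on few reads, since 5 of the 11 members without overlap had at least 10 reads in every library, and members that share sequence are not independent of each other.

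Hist1h2bg, an H2B gene (chr13:23571408-23571884, 1 exon), had the largest ratio of old to young means, 3.10, among the members with a mean above 0.5 RPKM. It had 27, 28 and 35 reads in old and 4, 14 and 10 in young, or 0.670, 0.778 and 0.909 RPKM in old and 0.129, 0.378 and 0.253 RPKM in young. The lowest old library was well above the highest young one. On the log2(RPKM + 0.1) scale it differed by 1.38 ± 0.29 (SE), with an adjusted p of 0.128 in limma, and by 1.10 ± 0.20 (SE) without young replicate 1 (adjusted p = 0.0186, limma). Hist1h2ae, the H2A gene across the same promoter, had 0.309, 0.346 and 0.215 RPKM in old and 0.0670, 0.168 and 0.157 RPKM in young and did not overlap either.

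The linker histone genes Hist1h1e and Hist1h1d lay apart too. Hist1h1e (chr13:23621755-23622502, 1 exon) had 1.39, 0.992 and 1.56 RPKM in old and 0.783, 0.517 and 0.677 RPKM in young, from 30 to 94 reads per library. Hist1h1d had 0.636, 0.606 and 0.633 RPKM in old and 0.207, 0.312 and 0.389 RPKM in young. Their mean RPKM in old was 1.99 and 2.06 times that in young, with log2(RPKM + 0.1) differences of 0.89 ± 0.22 and 0.87 ± 0.21 (SE) and adjusted p-values of 0.191 and 0.168 in limma. The related H1 gene Hist1h1c showed no such difference, and Hist1h1b, at 0.250 ± 0.116 RPKM in old and 0.177 ± 0.0453 RPKM in young (SD, n = 3 each), overlapped. Hist1h1a and Hist1h1t, the testis-specific linker histone gene, had 0 to 6 reads per library.

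The remaining members without overlap were low, and those not in Hist2 are named for that reason after their values were seen. The H2B gene Hist1h2bk had 0.348, 0.390 and 0.338 RPKM in old and 0.194, 0.108 and 0.152 RPKM in young (4 to 14 reads per library). Hist1h2bf, also H2B, had 4 to 10 reads in old and 0 to 4 in young. Hist1h2br was the 1 member that was lower in every old library, at 0.198, 0.0839 and 0.202 RPKM in old and 0.237, 0.291 and 0.251 RPKM in young, and its row is an H2B gene of 2212 bases rather than a short one. Of its 50-base stretches 88.7% also occurred at other loci, as did 74.2% of those of Hist1h2bk, whose closest partner it was. Whether the assignment of shared reads bears on the opposite directions of these rows was not tested.

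**Figure D4:**
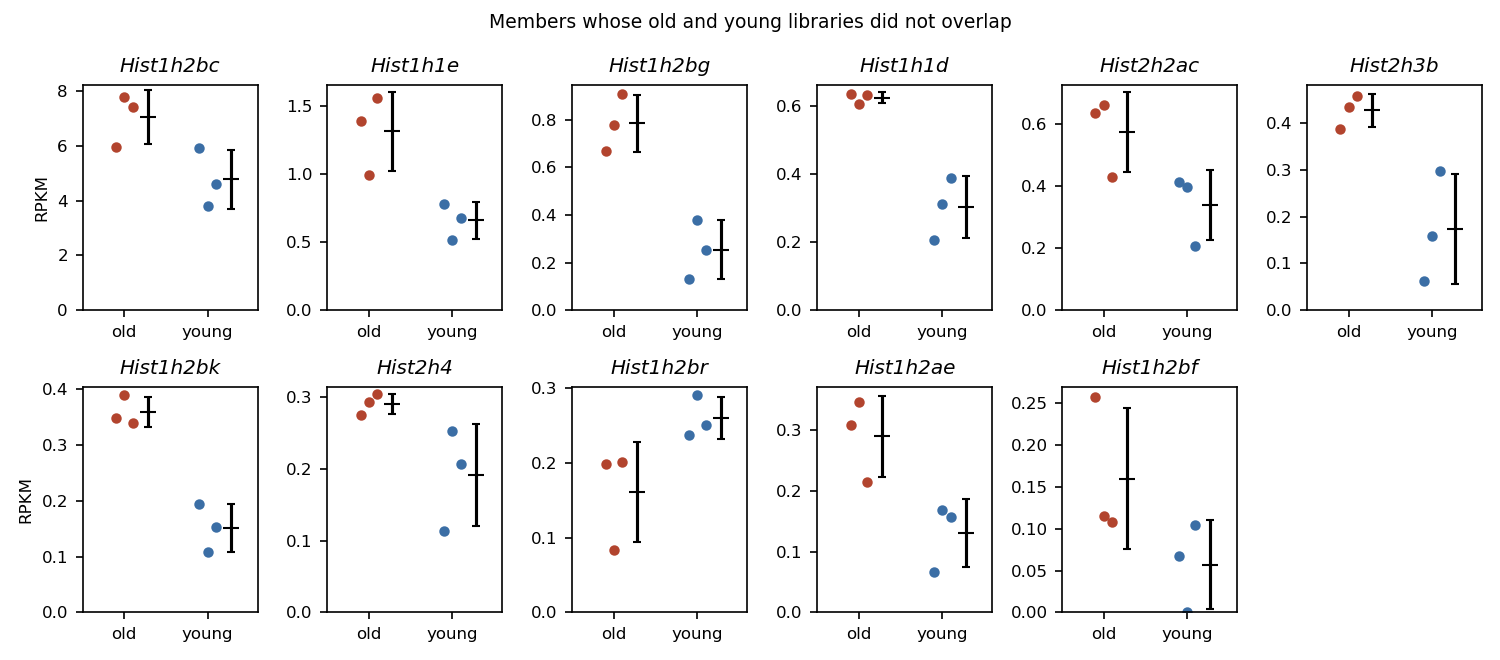
RPKM of the 11 members whose old and young libraries did not overlap, in order of mean level, old left and young right, with mean ± SD (n = 3) as black bars; each panel has its own axis from 0. In 10 members the old libraries lie higher, as for Hist1h2bg (0.670 to 0.909 RPKM in old and 0.129 to 0.378 RPKM in young), and in Hist1h2br they lie lower.

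The other Hist2 genes besides Hist2h2aa2 were all under 1 RPKM on average. Hist2h3b, an H3 gene, had 0.388, 0.435 and 0.457 RPKM in old and 0.0632, 0.158 and 0.297 RPKM in young, and all old libraries were higher. The H2A gene Hist2h2ac, at 0.637, 0.663 and 0.429 RPKM in old and 0.415, 0.396 and 0.209 RPKM in young, and the H4 gene Hist2h4, at 0.276, 0.293 and 0.304 RPKM in old and 0.113, 0.253 and 0.207 RPKM in young, were apart by narrow margins. The 6 others overlapped: Hist2h2bb averaged 0.886 RPKM in old and 0.631 RPKM in young, Hist2h2be 0.489 and 0.471, Hist2h2aa1 0.319 and 0.300, Hist2h2ab 0.158 and 0.0837, Hist2h3c1 0.114 and 0.136, and Hist2h3c2 0.140 and 0.102. Outside Hist1 and Hist2, Hist3h2a averaged 1.01 ± 0.123 RPKM in old and 0.899 ± 0.0696 RPKM in young (SD, n = 3 each), with exons that run 1643 bases past its hairpin and overlap Trim17. Hist3h2ba had 0 or 2 reads per library, and Hist4h4 2 to 14 reads over 2863 bases.

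The highest remaining genes of H2B, H3 and H4 overlapped between the groups. Hist1h2bj averaged 0.443 ± 0.195 RPKM in old and 0.466 ± 0.179 RPKM in young, and Hist1h3c 0.426 ± 0.288 RPKM in old and 0.253 ± 0.113 RPKM in young (SD, n = 3 each). Hist1h4d averaged 0.506 ± 0.115 RPKM in old and 0.363 ± 0.261 RPKM in young (SD, n = 3 each), where young replicate 2 held 2 reads. Hist1h3h, Hist1h4a and Hist1h4c had 10 reads or fewer in each library. Over all 67 members the mean was higher in old for 47 (70.1%) and lower for 20, against 52.8% of all 29587 rows with a fold change above 0 in the fit with no filter.

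Within the 12 head-to-head pairs the partners were seldom at the same level. The H2A gene was the higher one in 8 pairs and the H2B gene in 4. Hist1h2bc was 17.3 times as high per length as Hist1h2ac, whereas Hist1h2ad and Hist1h2bf differed by a factor of 1.00, both at 0.108 RPKM. In the pair of Hist1h2ae and Hist1h2bg both genes were apart between old and young, with old means 2.22 and 3.10 times the young means. In the pair of Hist1h2ah and Hist1h2bk only the H2B gene was, with Hist1h2ah at 0.244 ± 0.118 RPKM in old and 0.214 ± 0.202 RPKM in young (SD, n = 3 each). Of the 50-base stretches of Hist1h2ae and Hist1h2bg, 43.2% and 49.7% also occurred at other loci. The closest partner of Hist1h2bg was Hist1h2bc, and Hist1h2ae held 2 reads in young replicate 1.

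Genes that make and process histone transcripts were not called in either direction, 0 higher and 0 lower of 17 tested by limma, with 0 higher and 1 lower at an unadjusted p under 0.05 and 0 calls by voom. The 1 gene was Slbp, which encodes the stem-loop binding protein: it had 22.7, 23.2 and 23.9 RPKM in old and 28.4, 30.2 and 30.0 RPKM in young, with no overlap. Its log2 fold change was -0.33 ± 0.08 (SE; adjusted p = 0.153, limma), and -0.36 ± 0.05 (SE) without young replicate 1 (adjusted p = 0.00461, limma). Ccne1, the cyclin E gene whose kinase acts on histone transcription, Eri1, an exonuclease of the histone stem-loop, and Lsm10, a subunit of the U7 particle that cuts the transcripts, had log2 fold changes of -0.17, -0.17 and -0.19, with adjusted p-values of 0.505 to 0.800 (limma). The median of the list was -0.03, against 0.01 over all genes tested. Without young replicate 1, limma called 0 higher and 6 lower of the 17, against 13.2% and 19.4% of all genes tested.

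Of 10 tested histone variants outside the clusters, limma called 0 higher and 1 lower. With all libraries all 10 had a fold change below 0, against 5858 of all 12015 genes tested. Without young replicate 1 it was 7 of 10, against 7135 of the 12015 genes. Cenpa, the H3 variant of centromeres, fell to 9.98, 11.8 and 9.75 RPKM in old, against 18.1, 15.95 and 17.5 RPKM in young, a log2 fold change of -0.66 ± 0.11 (SE; adjusted p = 0.0462, limma). H1f0, the linker histone of non-dividing cells, averaged 158 ± 3.25 RPKM in old and 200 ± 15.7 RPKM in young (adjusted p = 0.239, limma), and H2afz, the H2A variant Z, 139.5 ± 2.32 RPKM in old and 173 ± 20.8 RPKM in young (adjusted p = 0.395, limma). H1fx averaged 36.2 ± 4.57 RPKM in old and 61.4 ± 21.7 RPKM in young, where young replicate 1 was the highest at 85.2 RPKM. The mean RPKM of H1f0 and H2afz was above that of every clustered member in both groups. The median log2 fold change of the list was -0.23. Without young replicate 1 limma called 0 higher and 4 lower of the 10, against 13.2% and 19.4% of all genes tested.

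Among 27 histone chaperones and importers 1 was called higher and 0 lower. Daxx, which deposits the H3 variant H3.3 on chromatin, rose to 29.5, 33.0 and 31.4 RPKM in old, against 21.1, 18.6 and 20.97 RPKM in young, a log2 fold change of 0.61 ± 0.09 (SE; adjusted p = 0.0391, limma). The others of smallest p were the importin gene Ipo4 at 12.4 ± 0.219 RPKM in old and 8.94 ± 1.45 RPKM in young, the nucleosome assembly gene Nap1l1 at 463 ± 16.05 RPKM in old and 584 ± 27.4 RPKM in young, and the H3-H4 chaperone gene Asf1b at 4.72 ± 0.170 RPKM in old and 5.54 ± 0.461 RPKM in young (SD, n = 3 each), with adjusted p-values of 0.244 to 0.555 (limma). The list's median log2 fold change was -0.05. Without young replicate 1, 3 of the 27 were called higher and 8 lower, against 13.2% and 19.4% of all genes tested.

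The S-phase list was lower in sum in every old library, at 806 to 818 RPKM against 925 to 950 RPKM in young. Most of that difference came from Top2a and Mki67, genes of dividing cells. Limma called 0 of 27 in either direction (0 higher and 5 lower at an unadjusted p under 0.05, and 0 by voom). Top2a, the DNA topoisomerase of dividing cells, had 115, 111 and 114 RPKM in old and 150, 154 and 155 RPKM in young, with a log2 fold change of -0.43 ± 0.08 (SE; adjusted p = 0.0754, limma). Mki67, the gene of the proliferation antigen Ki-67, averaged 94.1 ± 4.22 RPKM in old and 135 ± 29.6 RPKM in young, where young replicate 1 lay at 101 RPKM. Rrm2, a subunit of the enzyme that makes deoxyribonucleotides, averaged 11.4 ± 0.312 RPKM in old and 13.7 ± 0.302 RPKM in young, and Prim1, the primase subunit, 11.6 ± 0.379 RPKM in old and 14.4 ± 1.90 RPKM in young (SD, n = 3 each). The median log2 fold change of the list was -0.08. Without young replicate 1 limma called 0 higher and 9 lower of the 27, against 13.2% and 19.4% of all genes tested. The H2B and H4 sums lay the other way from the S-phase sum in the same libraries. The H1, H2A and H3 sums overlapped between the groups, with old to young ratios of 0.892, 1.11 and 1.55. A relation between the S-phase and histone sums was not tested.

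Other RNAs without a poly(A) tail were counted as well, among them 7SL, small nucleolar and Y RNAs. The sum over 22 of them was 133, 176 and 137 RPKM in old and 162, 142 and 139 RPKM in young, and the groups overlapped. The 7SL rows Rn7s1 and Rn7s2, the RNA of the signal recognition particle, made up 57.8 to 69.8% of it over the 6 libraries. Limma called 1 of 13 higher and 0 lower. Rny3, a Y RNA of 102 bases, rose to 1.62, 1.82 and 1.94 RPKM in old, against 0.604, 0.758 and 0.946 RPKM in young. Its log2 fold change was 0.66 ± 0.10 (SE, adjusted p = 0.0336 in limma). For a row this short, these values rest on few reads in each library. Snora73b averaged 3.32 ± 0.708 RPKM in old and 4.77 ± 0.212 RPKM in young, Snora74a 1.56 ± 0.295 RPKM in old and 2.12 ± 0.226 RPKM in young, and Scarna2 2.75 ± 0.432 RPKM in old and 2.23 ± 0.550 RPKM in young (SD, n = 3 each). The list had a median log2 fold change of 0.04. Without young replicate 1, 3 of the 13 were called higher and 2 lower, against 13.2% and 19.4% of all genes tested. The share of such RNA in these libraries was not tested as a source of the histone values.

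The 3 calls in these lists depended on the setting. Leaving out any other single library ended the calls of Daxx, Cenpa and Rny3, with adjusted p-values of up to 0.251, 0.308 and 0.212 (limma), and voom did not call them, with adjusted p-values of 0.0502, 0.0514 and 0.175. With all 6 libraries each was also lost in the fit with no filter, in the fit from a mean of 0.1 RPKM and with the replicate number as a block. Daxx and Cenpa were further lost under all 3 other scalings and with the length trend removed, with adjusted p-values of 0.0543 to 0.237 in limma, and Cenpa with robust variance estimates (0.0516) and in the fit from 10 reads in every library (0.0544). Without young replicate 1 all 3 were called.

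**Figure D5:**
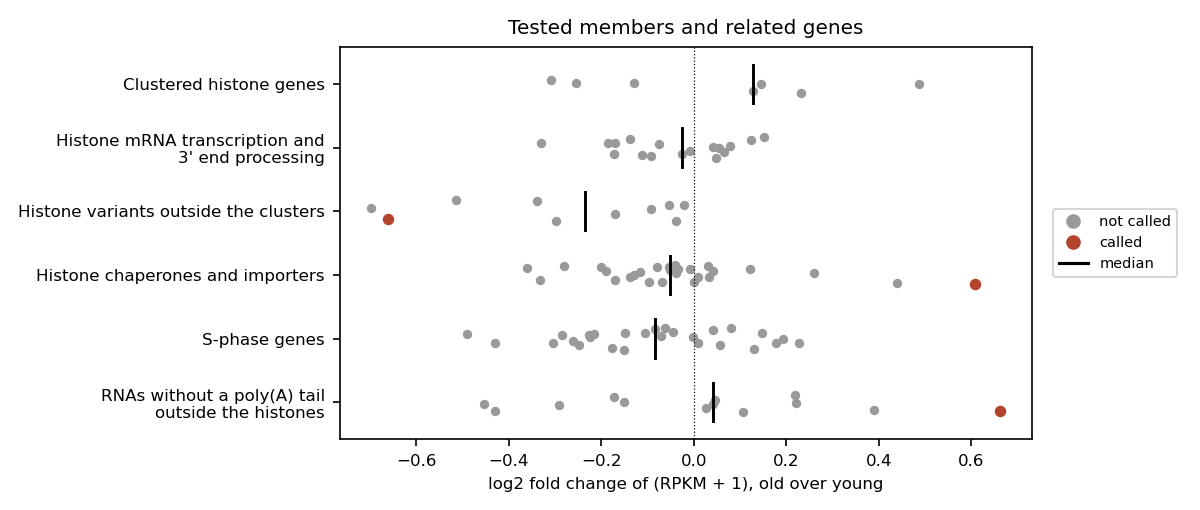
Log2 fold change of (RPKM + 1), old over young, of each tested gene in the clustered histone group and the 5 related lists; red points were called at an adjusted p under 0.05 by limma and black lines are list medians. The 7 tested clustered genes include no call, and the called genes are Cenpa (-0.66), Daxx (0.61) and Rny3 (0.66).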

How the data were processed

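The authors deposited 1 table of RPKM per gene for 6 libraries, with exon positions and gene length. The submitters' processing notes name fastp, STAR, HTSeq, edgeR and build mm10, without versions; the sources used here do not give the annotation, the strand setting or the handling of reads with several matches. Multiplied by length, 100% of the RPKM values came out as whole reads within 0.01, and even numbers made up 77.5 to 79.3% of genes at 1 to 5 reads, so reads are not independent molecules and intervals cover less than the full error.

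The 67 members were found by symbol. The fit took the 12015 genes that reached 1 RPKM in 3 or more libraries. It was made on log2(RPKM + 1) in limma 3.58.1 (R 4.3.3), with age group alone as a term and a trend of the variance on expression. Tests were two-sided with Benjamini-Hochberg adjustment over all genes fitted, and fold changes on this scale understate those of low genes. Without counts in the deposit, no count test was a main result; voom on the recovered reads was an alternative.

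Named members are, per class, the 5 of highest mean, the 2 tested of smallest p, the 2 of largest ratio among members with at least 10 reads in every library, every Hist2, Hist3 and Hist4 gene, and, per related list, called genes and the 4 of smallest p. The members, lists and rules were chosen with earlier results of these data known. Transcripts came from GENCODE M21 and promoters from RefSeq (GRCm38.p6); 43 of the 67 members had the same exons in GENCODE M21 as in the table. Alternatives were other pseudocounts, filters, scalings, variance models and thresholds, library weights, a replicate block and leaving out each library.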

Additional observations from a re-analysis of the deposited data

How the results depend on the processing

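Limma called 0 histone members higher and 0 lower with all 6 libraries, and 0 under every alternative except 3: 2 higher without young replicate 1, 3 higher with library weights (Hist1h2ag, Hist1h2bc and Hist2h2aa2; weight 0.0425 for young replicate 1) and 5 higher in the fit from a mean of 0.1 RPKM without that library. The range over left-out libraries was 0 to 2. None was called lower under any alternative. The ratio of the summed RPKM, 1.10, stayed between 1.01 and 1.26.

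Calls over all genes, 177 higher and 12 lower of 12015, moved more. From a mean of 5 RPKM 99 of 6394 genes were higher, and from a mean of 0.1 RPKM 7 of 17181 were lower. These 2 counts also reflect the number of genes tested. With the length trend removed 44 were lower, and with weights 2119 were higher and 2957 lower. At an adjusted p under 0.1, 62 were lower. With an absolute log2 fold change of at least 1, 106 were higher and 0 lower. From a mean of 0.1 RPKM without young replicate 1, 1519 of 17181 were higher and 1909 lower. Leaving out 1 library gave 80 to 1589 higher and 0 to 2329 lower, the highest of each without young replicate 1. Removing the length trend changed the share of calls that were higher to 83.3%, against 93.7% with all libraries unadjusted. Scalings moved the median log2 fold change of all genes to between -0.02 and 0.00.

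The replicate block gave 82 higher and 0 lower and no member called. Deviations from the group means correlated at -0.03, -0.44 and 0.33 between libraries of the same number. Libraries of different number were as strongly related, such as old replicate 3 with young replicates 1 (-0.42) and 2 (0.43). With so few libraries these values cannot tell whether the numbers pair the libraries. Members higher without overlap numbered 18 without young replicate 1, against 10 with it. Signs turned for Hist1h2al without young replicate 1 (0.065, and 0.089 from a mean of 0.1 RPKM), Hist1h2ag without young replicate 3 (-0.011) and Hist1h2af without old replicate 1 (0.023); over left-out libraries they ranged from -0.51 to 0.065, from -0.011 to 0.25 and from -0.27 to 0.023. The causes were not tested. Most members lie under 1 RPKM, where few reads limit what can be detected.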
